A study of Drosophila melanogaster with 6 samples.

Results

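The CG11889 gene cluster is a group of 8 neighbouring genes on the right arm of the third chromosome of Drosophila melanogaster, made up of the pseudogenes CR43310 and CR13656 and the protein-coding genes CG11889, CG11891, CG11892, CG13658, CG11893 and CG13659. They are 8 of the 17494 genes in the count table, and 7 when CG11889 and CG11891, which had the same count in every library, are counted once. The cluster was selected on its counts in the contrast described here: CR43310, CR13656 and the CG11889/CG11891 pair because they were low together in M1BP RNAi myoblasts, and the other four as related neighbours for comparison. Fold changes and adjusted p-values of the members are therefore given as a description and are not read as support.

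PolyA RNA was sequenced from myoblasts of the wing disc, the precursors of the flight muscle, which had been purified by fluorescence-activated cell sorting at 0 h after puparium formation (APF) from animals raised at 25 °C. There were 3 WT and 3 M1BP RNAi libraries. Animals of both genotypes carried Mef2-GAL4, which drives expression in muscle precursors and muscle, and UAS-GFP::Gma, a green fluorescent actin-binding reporter, and those of the M1BP RNAi group also carried UAS-M1BP RNAi #1. Discs were pooled before sorting, and 1 RNAi line was sequenced. The study's methods describe the libraries as coming from separate RNA preparations and its experiments as independent biological replicates.

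The protein-coding members belong to the ecdysteroid kinase-like family, which shares a fold with choline kinases and other small-molecule kinases. In the silkworm, a relative phosphorylates ecdysteroids, the steroid hormones that time moulting and metamorphosis, and turns them into an inactive storage form. In Drosophila most members of the family have no assigned substrate. M1BP (Motif-1-binding protein), the target of the RNAi, is a zinc finger protein that binds the Motif 1 element of core promoters.

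The targeted gene was reduced. M1BP had 5821, 5288 and 5589 counts in WT against 1386, 1703 and 1671 in M1BP RNAi, and its normalised count was 30.5% of the WT level (log2 fold change of -1.71 with a standard error of 0.10, edgeR adjusted p = 1.45e-05). Library totals lay between 43086545 and 51855156 counts. Calls were made with the quasi-likelihood test of edgeR where the Benjamini-Hochberg adjusted p did not exceed 0.001 and the change was 1.5-fold or more. Myoblast markers summed to between 9764 and 10949 CPM, which is the count scaled to the library total, in WT and between 9693 and 10481 in M1BP RNAi, and 0 of the 8 were called. The genotypes also differed at the transgene marker genes, since w, which encodes the white transporter, rose from 13342 ± 1348 to 122543 ± 1295 normalised counts (SD, n = 3; log2 fold change of 3.20) and y, the yellow body pigment gene, rose from 2.79 ± 3.94 to 588 ± 38.5. Any other difference between the crossed lines cannot be told apart from the loss of M1BP.

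The members lie in a longer array and start at its left end. In dm6, 28 consecutive genes between positions 25268009 and 25331203 of 3R, a span of 63.2 kb, were the 8 members and 20 further genes of the family. Of these, 26 were annotated as protein-coding and 2 as pseudogenes, 13 lay on the plus strand and 15 on the minus strand, and the 25 genes with an annotated protein length encoded 396 to 439 residues, with a median of 417. All 8 members lay on the plus strand. They did not form an unbroken block.

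CR43310 (FBgn0263002, 25268009 to 25268464, 361 exonic bases) was first, followed after 196 bases by CR13656 (FBgn0039307, 25268661 to 25269965, 1248 exonic bases) and after another 243 bases by CG11889. The genes CG11889 (FBgn0039308) and CG11891 (FBgn0039309) had the same span, 25270209 to 25273267, and the same 2944 exonic bases. The reason is visible in the annotated transcripts. CG11889 had a short transcript ending at 25271583 and a long one ending at 25273267, while CG11891 had the same long transcript and a short one starting at 25271829. The coding part of CG11889 lay between 25270231 and 25271542 and that of CG11891 between 25271874 and 25273185, so the long transcript covered both. A read in either coding region was counted for both genes, and the counts cannot say which one it came from.

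The remaining 4 members followed at larger distances. CG11892 (FBgn0039313, 25281548 to 25283237) began 8280 bases after CG11889 with 3 genes in between. CG13658 (FBgn0039315, 25287474 to 25288930) and CG11893 (FBgn0039316, 25289889 to 25291366) were 958 bases apart with no gene between them, and CG13659 (FBgn0039319, 25300891 to 25302317) lay 9524 bases beyond CG11893. The annotated gene structures fell into 2 forms. The coding sequences of CG11889, CG11892 and CG11893 were each in 2 parts, with a long first part of 1057, 1120 and 1066 bases. Those of CG13658 and CG13659 were in 3 parts, with a first part of 555 and 543 bases.

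The leading 3 units of the cluster were transcribed at a low level in WT myoblasts and were nearly lost in M1BP RNAi, whereas the related neighbours had almost no counts in WT. CR43310, CR13656 and CG11889/CG11891 summed to 374, 245 and 359 counts in WT, against 24, 13 and 6 in M1BP RNAi. Their summed normalised count in M1BP RNAi was 4.71% of that in WT. CG11892, CG13658, CG11893 and CG13659 summed to 2, 0 and 0 counts in WT, against 21, 20 and 14 in M1BP RNAi. These totals of 2 and 55 counts are small, and other untested genes of the array did not share one direction.

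**Figure D1:**
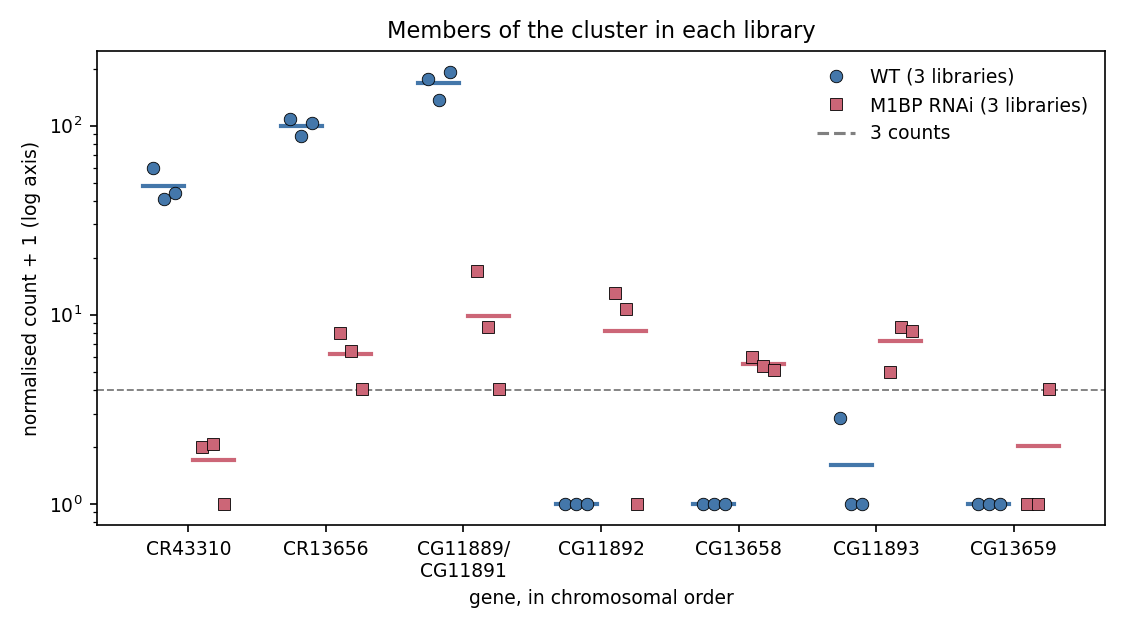
Normalised counts of the 7 members (CG11889 and CG11891 once) in each library, plotted as normalised count plus 1 on a log axis. Points show libraries and bars show the group means. The leading 3 units lie between 39.7 and 190 normalised counts in WT and between 0 and 16 in M1BP RNAi. The 4 neighbours lie at or near 0 in WT.

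CR43310 is a pseudogene of the family. It had 64, 37 and 46 counts in WT against 1, 1 and 0 in M1BP RNAi. Every M1BP RNAi library was below the lowest WT library, by a wide margin. In normalised counts the level went from 47.0 ± 9.98 to 0.694 ± 0.602 (SD, n = 3), and the pooled counts of 147 and 2 gave a ratio of WT to M1BP RNAi of 68.8 with a 95% counting interval from 18.7 to 574. The fitted log2 fold change of -5.86 (standard error 0.65, edgeR adjusted p = 0.000966) depends on the prior count, because M1BP RNAi was at or below 1 count in each library.

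CR13656, the second pseudogene, had 118, 81 and 109 counts in WT against 7, 5 and 3 in M1BP RNAi. Its groups did not overlap. The normalised count went from 98.8 ± 10.6 to 5.16 ± 1.98 (SD, n = 3), which is 5.22% of WT, with a log2 fold change of -4.23 (standard error 0.39, edgeR adjusted p = 0.000365).

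CG11889 and CG11891, the protein-coding pair, had 192, 127 and 204 counts in WT against 16, 7 and 3 in M1BP RNAi. The groups were far apart here too, although M1BP RNAi replicate 1 held more counts than the other two M1BP RNAi libraries together. The normalised count went from 167 ± 27.8 to 8.88 ± 6.57 (SD, n = 3), which is 5.31% of WT, with a log2 fold change of -4.21 (standard error 0.45, edgeR adjusted p = 0.000805). The pooled ratio of WT to M1BP RNAi was 18.8 for the pair and 19.2 for CR13656, and the 95% counting intervals, from 12.7 to 29.1 and from 11.5 to 34.8, overlapped. The interval of CR43310 overlapped both of these. Counts came from amplified cDNA without molecular identifiers, and the intervals cover counting error only.

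Of the 7 members, 3 passed the filter on low counts, and all of these were called lower. Over all 10306 tested genes, 0.252% were called lower and 0.475% in either direction, 20.2% had an unadjusted p under 0.05 and 12.3% had every M1BP RNAi library below every WT library. These 3 units passed the filter through their WT counts and were selected on this contrast, so nothing is read from the comparison with the background. CR43310 stood just inside the threshold. The first gene outside it among those lower in M1BP RNAi was dpn (deadpan, a transcriptional repressor of neural progenitors), at 785 ± 124 and 292 ± 54.5 normalised counts (log2 fold change of -1.43, edgeR adjusted p = 0.00116). The calls did not hold when a library was left out. Without each library in turn, 0 of the 3 units were called, except that CG11889 was called without M1BP RNAi replicate 1, with edgeR adjusted p of CR43310 from 0.00279 to 0.0092, of CR13656 from 0.00108 to 0.00407 and of CG11889 from 0.000809 to 0.00786. Every log2 fold change stayed at or below -3.80.

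The related neighbours gave a different picture at far lower counts. CG11892 had 0 counts in each WT library and 12, 9 and 0 in M1BP RNAi, a mean at least 2.48-fold higher than the detection floor of 3 counts per library. That difference came from M1BP RNAi replicates 1 and 2 alone. CG13658 had 0 counts in each WT library and 5, 4 and 4 in M1BP RNAi, at least 1.53-fold higher. Among the 4 named neighbours, it alone had 0 in all WT libraries and counts in all 3 M1BP RNAi libraries. CG31104, a gene of the array outside the members, had the same pattern, with 9, 2 and 9 counts in M1BP RNAi. CG11878, also outside the members, went the other way, with 4, 0 and 4 counts in WT and 0 in M1BP RNAi.

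CG11893 had 2, 0 and 0 counts in WT against 4, 7 and 7 in M1BP RNAi, a ratio of M1BP RNAi to WT of 9.61 with a 95% counting interval from 2.30 to 85.4. The 2 groups did not overlap, with 2 counts against 4 at the closest. Among the 10306 tested genes, which do not include CG11893, 1427 had every M1BP RNAi library above every WT library. CG13659 had 0 counts in WT against 0, 0 and 3 in M1BP RNAi, so both genotypes were at or below the detection floor and no fold is given. None of these 4 genes passed the filter, and without a filter their edgeR adjusted p lay between 0.123 and 0.527. A difference between genotypes was not established at this depth for any of the 4.

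On the scale of CPM per kilobase of exon, which allows genes to be compared, the order of levels in WT was CR43310 at 2.78 ± 0.56, CR13656 at 1.69 ± 0.17 and CG11889/CG11891 at 1.22 ± 0.20 (SD, n = 3). The ranges, 2.37 to 3.42, 1.5 to 1.82 and 0.997 to 1.39, did not overlap between neighbours in this order. CG11893 followed at 0.00909, from counts in a single library, and CG11892, CG13658 and CG13659 had none in WT. Among genes with at least 1 count, these levels placed CR43310, CR13656, CG11889 and CG11893 at the percentiles 49.8, 46.5, 44.2 and 8.41. On this scale the pseudogenes were no lower than the protein-coding pair beside them. The scale divides by all 2944 exonic bases of the pair, although each of its genes also has a shorter transcript. Which transcript held the reads was not tested, so the order of abundance holds for the annotated exonic lengths only.

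The counts of the 3 units kept similar proportions within WT libraries. CR13656 had 0.615, 0.638 and 0.534 times the counts of CG11889 in the WT libraries, and CR43310 had 0.333, 0.291 and 0.225 times. In M1BP RNAi the proportions were spread more widely, at 0.438, 0.714 and 1 for CR13656 and at 0.0625, 0.143 and 0 for CR43310, with between 3 and 16 counts of CG11889 in the denominator.

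A gene on the opposite strand of the pseudogenes was not called. The antisense RNA asRNA:CR45214 (FBgn0266741, 25266813 to 25270007, minus strand) shares 270 of the 361 exonic bases of CR43310 and 43 of the 1248 of CR13656. It had 1264, 1125 and 1231 counts in WT against 1124, 917 and 1052 in M1BP RNAi, or 1170 ± 33.2 and 1064 ± 67.6 normalised counts (SD, n = 3), and a log2 fold change of -0.14 (standard error 0.079, edgeR adjusted p = 0.368). The exons of asRNA:CR45214 also overlap those of RIOK2, a neighbour on the plus strand with 2119 ± 94.3 and 2023 ± 103 normalised counts. Whether the counting used strand is not given in the sources used here, so reads over the shared bases cannot be assigned to one strand or the other. How much of the count of asRNA:CR45214 came from RIOK2 was not tested, so a steady antisense RNA over the pseudogenes cannot be read from it. The mean difference between genotypes was -46.3 normalised counts for CR43310 and -93.6 for CR13656, against -106 for the antisense RNA. CG11889 and CG11891 overlap no exon of another gene.

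Around the members, the tested genes had log2 fold changes well above those of the leading units. Within 50 kb of the cluster, 45 other genes were in the count table, 25 were tested, and 0 were called by edgeR or by DESeq2, beside 0.475% called by edgeR over all tested genes, a share at which a list of this length says little. Their log2 fold changes spanned -0.35 to 0.62, and the median was -0.0085, beside 0.0070 over all tested genes. One gene had an unadjusted p under 0.05, beside 20.2% over all tested genes. It was Fur1 (a furin-type protease), at 12792 ± 1363 and 10060 ± 602 normalised counts (log2 fold change of -0.35, edgeR adjusted p = 0.0479), and it is named for that value.

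RIOK2, which encodes a kinase of ribosome assembly and ends 251 bases to the left of CR43310, had 2233, 2069 and 2248 counts in WT against 2119, 1772 and 1987 in M1BP RNAi (log2 fold change of -0.066, edgeR adjusted p = 0.635). On the other side, CG31098 is the nearest tested gene to the right of CG11889 and lies among the members, with 53, 36 and 30 counts in WT against 79, 56 and 37 in M1BP RNAi (log2 fold change of 0.62, edgeR adjusted p = 0.386). CG31436, the nearest to the right of CG13659, the last member, had 39, 11 and 37 counts in WT against 23, 30 and 46 in M1BP RNAi (log2 fold change of 0.31, edgeR adjusted p = 0.761). The groups of all 3 genes overlapped. The untested gene immediately to the right of CG11889, CG11878, begins 569 bases further on with 4, 0 and 4 counts in WT but none in M1BP RNAi, which is too few for a direction.

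**Figure D2:**
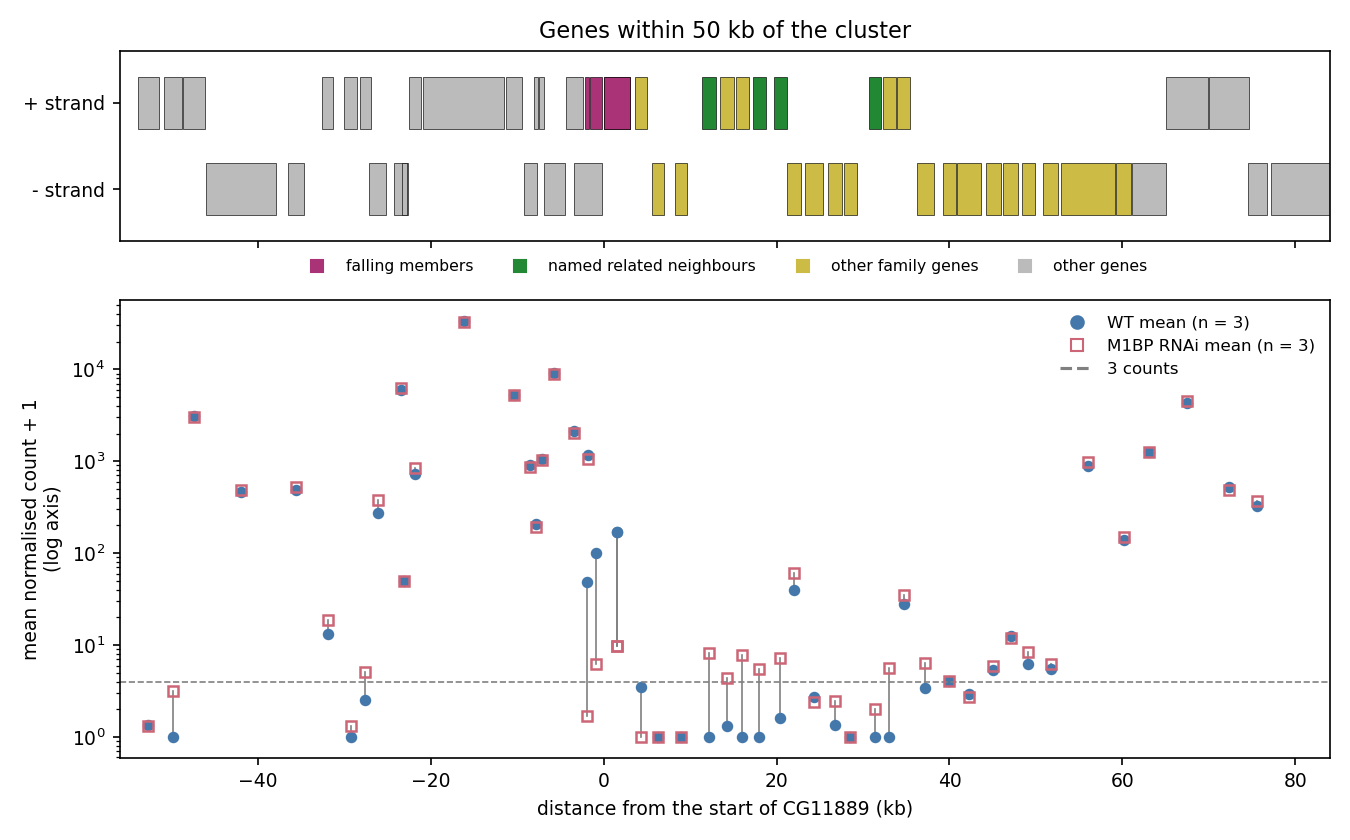
Genes within 50 kb of the members against the distance in kb from the start of CG11889, tested or not. The upper panel shows the genes by strand. The lower panel shows the mean normalised count plus 1 of WT and of M1BP RNAi on a log axis, with a dashed line at 3 counts. Fur1, centred further to the right, is not drawn in the lower panel. The 3 member units, at the left end of the array, had log2 fold changes between -5.86 and -4.21. Those of the other tested genes within 50 kb lay between -0.35 and 0.62.

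The other 20 genes of the array carried a similar number of counts in both genotypes when summed, with 1296, 1095 and 1129 counts in WT against 1263, 1159 and 1263 in M1BP RNAi. Most of these came from CHKov1, a gene known for a transposon insertion associated with resistance to viruses, at 894 ± 80.2 and 970 ± 12.9 normalised counts (SD, n = 3; log2 fold change of 0.12, edgeR adjusted p = 0.494). Of the 20 genes, 4 were tested and 3 (CG10513, CG10514 and CG31288) had 0 counts in all 6 libraries. CG31104 had 0 counts in each WT library and 9, 2 and 9 in M1BP RNAi. CG31370 also had 0 in WT, and 3, 10 and 0 in M1BP RNAi. Both were picked out after their counts were seen.

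The tested genes of the rest of the family had log2 fold changes near 0. A list of 45 other ecdysteroid kinase-like genes, drawn up from knowledge of the family, held 16 tested genes, of which 0 were called by edgeR or DESeq2 and 1 had an unadjusted p under 0.05, beside 0.475% and 20.2% over all tested genes. At that share 0 calls among 16 genes is no result about the family, and the other 29 genes of the list were not tested. Their log2 fold changes ranged from -0.76 to 0.77 with a median of 0.016, beside 0.0070 over all tested genes, and 7 lay below 0 and 9 above. The 3 lowest were CG13360 at -0.76 (edgeR adjusted p = 0.350), CG6830 at -0.63 (edgeR adjusted p = 0.713) and CG13813 at -0.29 (edgeR adjusted p = 0.754). Single libraries moved these values. CG13360 was at -1.05 without WT replicate 2 and at -0.51 without WT replicate 1. CG6830 had 12, 11 and 10 counts in WT against 2, 1 and 17 in M1BP RNAi, and was at -2.69 without M1BP RNAi replicate 3 and at -0.15 without M1BP RNAi replicate 2. CG13813 was at -0.64 without M1BP RNAi replicate 3 and at -0.11 without M1BP RNAi replicate 1, and neither gene was called without any library. The highest was CG32195, at 220 ± 40.2 and 375 ± 65.8 normalised counts (SD, n = 3; log2 fold change of 0.77 with a standard error of 0.19, edgeR adjusted p = 0.0528). It was followed by CG31098 at 0.62 and by JhI-26, a juvenile hormone inducible gene, at 0.34 (edgeR adjusted p = 0.530). The 3 genes with the highest level per kilobase of exon were CG2004 (log2 fold change of 0.083, edgeR adjusted p = 0.615), CG5126 (log2 fold change of -0.11, edgeR adjusted p = 0.525) and CHKov1.

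**Figure D3:**
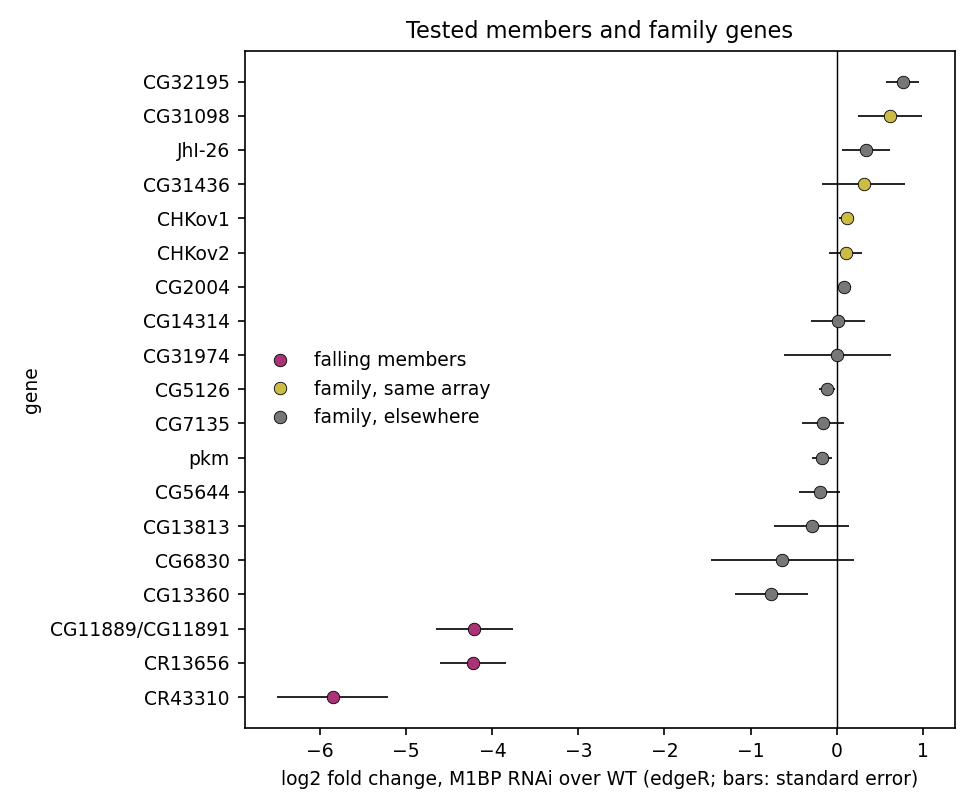
Log2 fold change (M1BP RNAi relative to WT) for the tested members and the 16 tested genes of the rest of the family, ordered by value, with bars for 1 standard error. The members lie between -5.86 and -4.21 and the other genes of the family between -0.76 and 0.77.

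Outside the family, 6 genes that act on ecdysteroids were examined. Of these, 4 were tested, 0 were called by edgeR or DESeq2 and 0 had an unadjusted p under 0.05, beside 0.475% and 20.2% over all tested genes, so the counts are near the background. EcR, the ecdysone receptor, had a log2 fold change of -0.023 (edgeR adjusted p = 0.900), and usp, its partner in the receptor, of 0.072 (edgeR adjusted p = 0.565). Oatp74D, the ecdysone importer, was at -0.078 (edgeR adjusted p = 0.578) and E23, a transporter that lowers the ecdysone response, at 0.12 (edgeR adjusted p = 0.606). The inactivating enzymes Cyp18a1, a 26-hydroxylase, and Eo, ecdysone oxidase, were not tested. Cyp18a1 had 4, 0 and 16 counts in WT against 37, 0 and 4 in M1BP RNAi, and Eo had 4, 10 and 6 in WT against 2, 8 and 14 in M1BP RNAi. The groups of both overlapped.

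Markers of other cell types moved in part with the genotype. Haemocyte markers summed to between 25.6 and 37.3 CPM in WT and between 18.8 and 23.9 CPM in M1BP RNAi, with 3 of 6 tested, a median log2 fold change of -0.95, 2 at an unadjusted p under 0.05 and the defining phagocytic receptor eater at 0. Tracheal markers, all 5 of which were tested, summed to between 23.4 and 52.4 CPM in WT and between 17.5 and 26.2 in M1BP RNAi, with a median log2 fold change of -0.63 and 3 at an unadjusted p under 0.05. Markers of differentiated muscle summed to between 345 and 409 CPM in WT and between 450 and 506 in M1BP RNAi, with 5 of 6 tested, a median log2 fold change of 0.89 and 4 at an unadjusted p under 0.05. The part of these cells in the counts of the cluster was not tested, and fewer cells of one type cannot be told apart from less RNA per cell. Fat body markers were near 0, between 0.393 and 1.19 CPM in WT and between 0.389 and 1.21 in M1BP RNAi. Wing disc epithelium lay at 310 to 315 CPM in WT and 288 to 318 in M1BP RNAi, but the median log2 fold change of its 6 markers was -0.71, and 2 of them, pnr and nub, had an unadjusted p under 0.05 and did not overlap between genotypes. Most of the sum came from ap. Neuronal markers lay at 31.1 to 33.4 CPM in WT and 27.6 to 32.7 in M1BP RNAi. In each of these lists 0 genes were called, beside 0.475% over all tested genes, and the share with an unadjusted p under 0.05 stands beside 20.2%.

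Among genes outside the cluster, Slc45-1 had the profile over the 6 libraries closest to that of CG11889. Likeness was measured as the root mean square distance of centred log2 CPM, where 0 is an identical profile and the median over all other tested genes was 2.98. The distance was 0.36 for CR13656, 0.41 for CR43310 and 0.412 for Slc45-1, a sugar transporter of another region. CR13656 and CR43310 were selected for being low together with CG11889 in these libraries, so their short distances were set by that selection and are not read as support. Slc45-1 had 389, 232 and 272 counts in WT against 18, 16 and 11 in M1BP RNAi (log2 fold change of -4.19, edgeR adjusted p = 3.31e-05). The next genes were CG14488 at a distance of 0.718, CR45458 and Gbeta76C both at 0.793, and Mal-B2 at 0.963. CR45458, annotated as a pseudogene, had 262, 205 and 204 counts in WT against 22, 18 and 19 in M1BP RNAi (log2 fold change of -3.41, edgeR adjusted p = 5.04e-05).

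CG14488 had 77, 65 and 84 counts in WT against 3, 0 and 3 in M1BP RNAi (edgeR adjusted p = 0.00131). Gbeta76C, the G protein beta subunit known from the eye, had 90, 40 and 61 in WT but 0 in every library of M1BP RNAi, at least 19.5-fold lower (edgeR adjusted p = 0.00141). Mal-B2, a maltase, had 60, 54 and 45 in WT against 0, 7 and 0 in M1BP RNAi (edgeR adjusted p = 0.0234), and its M1BP RNAi counts came from replicate 2 alone. The groups of all 5 genes were apart. They were chosen for their likeness over the libraries of this contrast, so their fold changes are a description.

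**Figure D4:**
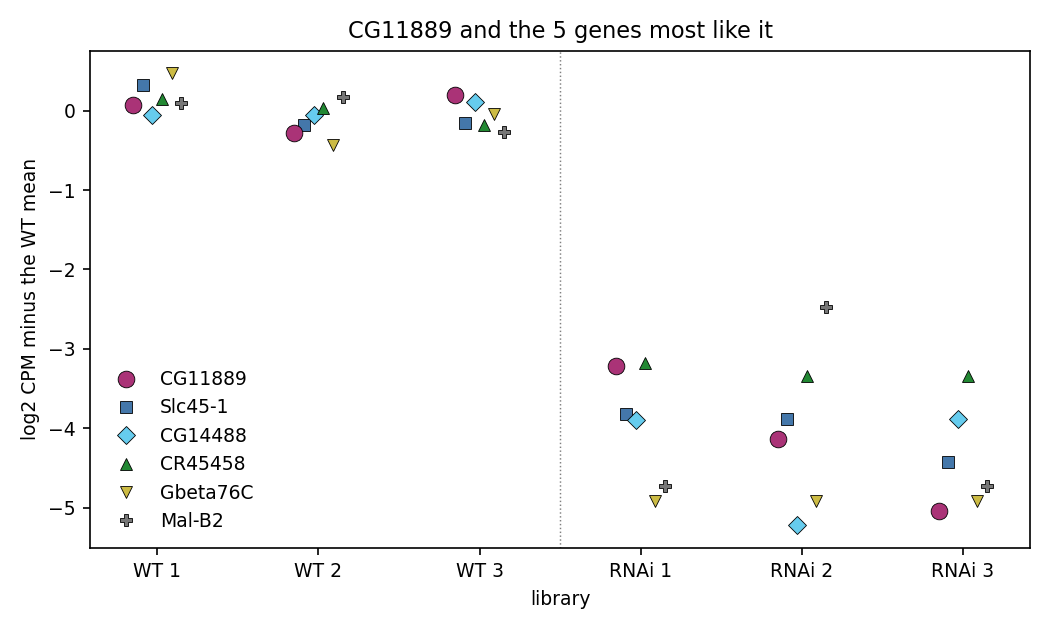
Log2 CPM minus the WT mean for CG11889 and the 5 most alike genes outside the cluster, with libraries on the horizontal axis and 1 type of marker per gene. All genes shown are high in the 3 WT libraries and low in the 3 M1BP RNAi libraries. The distances of the 5 genes from CG11889 lie between 0.412 and 0.963.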

How the data were processed

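The members and gene lists were chosen with earlier results of these data known. Per the labels, polyA RNA was copied into full-length cDNA, which was amplified by PCR and cut with Tn5. The authors deposited raw counts of uniquely aligned reads over the exons of 17494 genes in dm6, with the length of each gene as the other deposited column. The labels name bcl2fastq 2.17.1.14 and Subread 2.0.3, the package of featureCounts. The aligner and the use of strand are not given in the sources used here. Counting unique reads lowers genes with near-identical copies, and the family has close relatives. The authors also deposited their own DESeq2 comparison, which holds a signal (the mean of normalised counts), a log2 fold change with its error and a p-value with its adjusted value. Of it, only the gene symbols were used.

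Counts were tested with edgeR (version 4.0.16, R 4.3.3) on all 6 libraries: filterByExpr with its minimum of 10 counts kept 10306 genes, TMM factors lay between 0.988 and 1.007, genotype was the single term, and glmQLFit and glmQLFTest were followed by Benjamini-Hochberg adjustment over the tested genes. Groups and replicate numbers came from the sample titles. The common biological coefficient of variation was 11.9%. A count of 3 corresponded to between 0.0579 and 0.0696 CPM. Normalised counts were scaled by the effective size of each library to the mean of these sizes. Counting intervals are exact binomial intervals of pooled counts at a level of 95%. Overlaps were found with GenomicRanges (version 1.54.1), and transcript structures came from an Ensembl annotation of the same assembly. Symbols came from a reference table for 17358 identifiers and from the deposited table for 83. No pair of replicates agreed within sampling noise (chi-square over its degrees of freedom from 10.7 to 51.7).

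Named genes were the members, M1BP, w, y, genes with exons overlapping a member, the nearest tested gene on each side, any called gene within 50 kb, called genes and the 3 lowest, 3 highest and 3 most expressed of the other family genes, the 6 ecdysteroid genes, and the 5 genes nearest to CG11889 in profile. The procedure was tested on simulated data. Alternatives were DESeq2 (version 1.42.0), RLE size factors, no filter, an adjusted p of at most 0.05, a replicate block, CG11891 left out of the table, TMM-scaled levels and each library left out. Sequences of promoters and proteins were not analysed here.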

Additional observations from a re-analysis of the deposited data

How the results depend on the processing

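The count of called members, 3 in the main analysis, was 3 with DESeq2, without a filter, at an adjusted p of at most 0.05 and with CG11891 left out, 2 with RLE size factors (CR43310 at an edgeR adjusted p of 0.00106), and between 0 and 1 when a library was left out, with the call of CG11889 kept only without M1BP RNAi replicate 1. Over all genes the count of calls, 49 in the main analysis, was 174 with DESeq2, 99 without a filter, 223 at an adjusted p of at most 0.05 and between 17 and 31 when a library was left out. The direction of each of the 3 member units was kept under every alternative. Log2 fold changes over the left-out libraries lay between -6.23 and -5.34 for CR43310, between -4.52 and -3.96 for CR13656 and between -4.96 and -3.80 for CG11889. Signs reversed for CG31436 (range of -0.044 to 0.55 over the left-out libraries), EcR (-0.097 to 0.032) and E23 (-0.012 to 0.24), none of which was called. CG14488 and Gbeta76C were called with DESeq2 and without a filter, and Mal-B2 with DESeq2.

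With the replicate number as a block, 0 members and 19 genes in all were called, and the 3 units had log2 fold changes of -5.87 (CR43310, edgeR adjusted p = 0.0059), -4.25 (CR13656, 0.00264) and -4.30 (CG11889, 0.00389). Deviations of same-numbered libraries correlated at 0.031, -0.046 and -0.16 across genes, beside values from -0.085 to 0.12 for differently numbered libraries. With 3 libraries per group these correlations cannot decide whether libraries were paired. The study's methods describe no pairing, and the replicate number is known from the sample titles only. The cause of the lost calls was not tested. The planned comparison of protein identity and promoter motifs, with its alternative of 1 mismatch, was not run. With 3 libraries per group, differences among genes at a few counts, such as the 4 neighbours, could not be resolved.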

Other observations

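Called genes that lie next to each other among the tested genes were not limited to the cluster. Counting CG11889 and CG11891 once, 48 genes were called, 25 lower and 23 higher. Of these, 14 lay in 6 runs of neighbours that moved in the same direction. Other genes that share exons, and so may share reads, were not merged. The cluster and Hsc70-2, CG31157 and CG7966 made up the 2 runs of 3 genes. Hsc70-2, an Hsp70 family chaperone, went from 24.5 ± 6.62 to 927 ± 59.8 normalised counts (SD, n = 3), CG31157 from 1.22 ± 2.11 to 226 ± 42.3 and CG7966 from 24.5 ± 14.0 to 377 ± 42.4, with log2 fold changes between 3.93 and 7.32. Their exons do not overlap one another.

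The other run of lower genes was AdoR, the adenosine receptor, at 211 ± 14.9 and 31.3 ± 12.8 normalised counts, with asRNA:CR46082, whose exons overlap it, at 152 ± 3.34 and 19.95 ± 6.65. Unc-115b and p24-2 also share exons and had nearly the same values, at 542 ± 52.2 in WT for both and 1046 ± 80.0 and 1045 ± 79.6 in M1BP RNAi. The remaining runs included the transgene marker genes, with CG43182 beside y and CG32795 beside w. CG43182 went from 0.358 ± 0.620 to 1173 ± 185 and CG32795 from 1596 ± 106 to 2804 ± 164. These runs were picked out after their values were seen, and no test was made of how many runs a chance order of genes would give.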
